A study of Mus musculus with 9 samples.

Results

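Mesothelial marker genes were followed by mRNA sequencing in the mouse, in 5 normal oviducts and 4 primary tumors whose source is given as oviduct. The set was defined by gene symbol and holds 7 genes: Msln, Upk3b, Upk1b, Gpm6a, Lrrn4, Bnc1 and Muc16. Of these, 6 had a row among the 19435 genes of the table, and Muc16 had no row and was not analysed here. The genotype was Dicer1+/D1693N in oviducts 1 to 3, Dicer1+/+ in oviducts 4 and 5 and Dicer1ko/D1693N in all 4 tumors, so that the tumors and oviducts 1 to 3 share the D1693N allele of Dicer1, the enzyme that cuts miRNA precursors. The material was untreated primary tissue, and the age of the animals and the driver of the knockout are not given in the sources used here. Nothing states that the samples of a group came from separate animals, so p-values measure the spread between these samples, which may be technical.

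Mesothelium is the flat epithelium that lines the body cavities and covers the organs inside them, including the outer, serosal face of the oviduct. It arises from the coelomic epithelium, the same sheet that folds in to form the Müllerian duct, and the surface of the ovary is covered by a related layer. Mesothelial cells are recognised by surface proteins such as mesothelin and by transcription factors such as WT1, together with keratins. In RNA from whole tissue, fewer cells of a type and less RNA per cell cannot be told apart.

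The libraries held 8504993 to 12526078 counted reads in the oviducts and 8732190 to 11267144 in the tumors. Values are counts normalized by the size factors held in the deposited log2 values, and changes are differences of those log2 values, tumor minus oviduct, ± SE. Dicer1 stood at 1236.8, 1004.7, 1145.3, 903.9 and 1141.0 normalized counts in oviducts 1 to 5 and at 1282.9, 741.5, 1379.2 and 576.3 in tumors 1 to 4, which does not tell its alleles apart. Ovgp1, the oviduct-specific glycoprotein that marks the labelled tissue, ranged from 78143.7 to 150619.1 in the oviducts and from 111.5 to 11678.2 in the tumors. Called genes had a limma adjusted p under 0.05 together with a log2 change of at least 1.

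The mesothelial markers were lower in the tumors than in the oviducts in 5 of the 6 cases, and Msln was the exception. Upk3b, Upk1b, Gpm6a, Lrrn4 and Bnc1 fell, and 0 of the 6 rose. Of all genes tested, 12.1% were called lower in the tumors. The same 5 genes had every tumor below every oviduct, a pattern shown by 16.8% of all genes. The median change of the 6 genes was -1.68 on the log2 scale, beside -0.05 over all genes. The falls were unequal, with tumor means from 8.94% of the oviduct mean for Gpm6a to 34.7% for Bnc1.

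**Figure D1:**
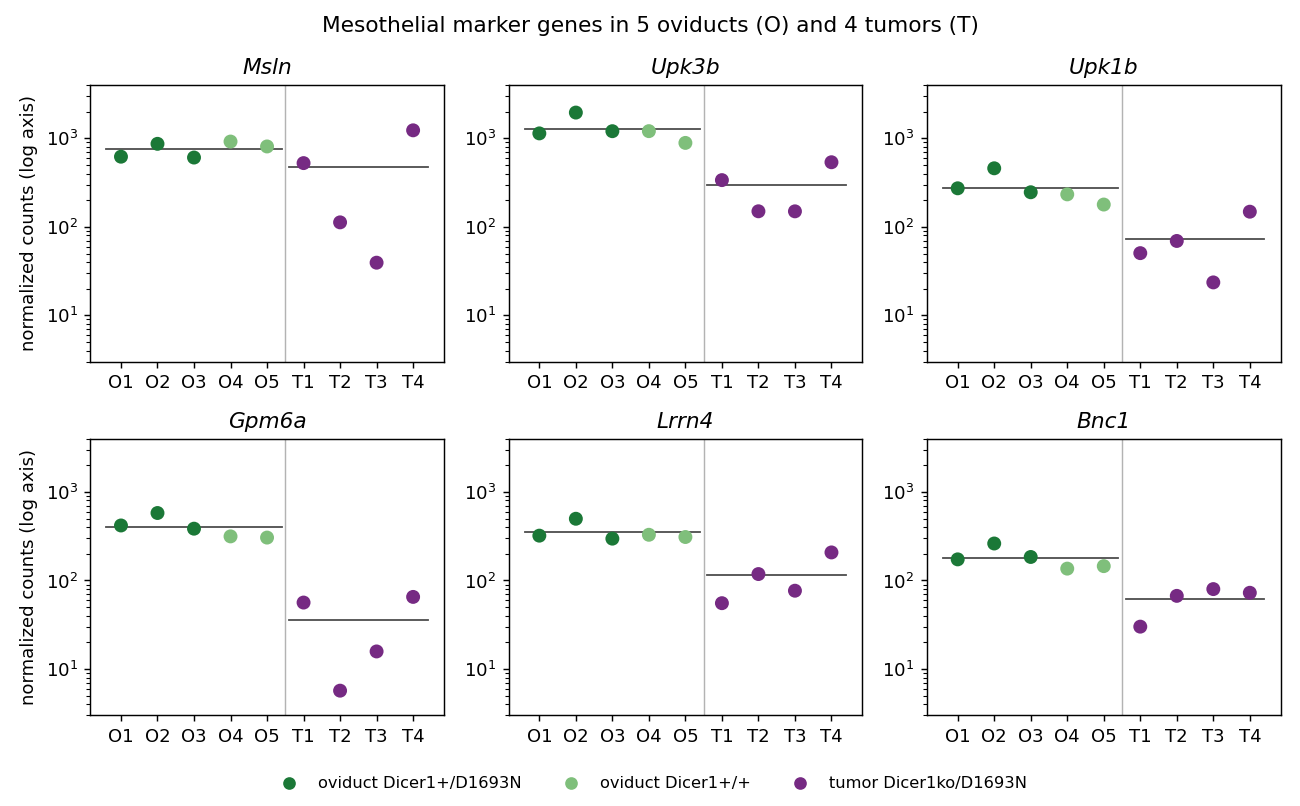
Normalized counts (log axis) of the 6 measured genes in oviducts 1 to 5 (O1 to O5) and tumors 1 to 4 (T1 to T4), with group means as lines and the genotype as color. Every tumor lies below every oviduct for each gene except Msln, which reached 1229.4 in tumor 4.

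Among the surface proteins, Msln codes for mesothelin, a GPI-anchored glycoprotein that binds MUC16 (the CA125 antigen). The gene (ENSMUSG00000063011.7) lies on GRCm38 chromosome 17, 25748613 to 25754378, minus strand. Msln stood at 619.5, 865.4, 606.0, 918.1 and 808.3 normalized counts in oviducts 1 to 5, and at 524.4, 112.4, 39.4 and 1229.4 in tumors 1 to 4. Tumors 1 to 3 were below every oviduct, and tumor 4 was above every oviduct, so the groups overlapped. The change was -1.52 ± 0.73 (limma adjusted p = 0.142, 95% confidence interval -3.14 to 0.11). Without tumor 4 it was -2.25 and Msln was called lower (adjusted p = 0.0116). Against the oviduct mean, Msln in tumor 3 was at 5.2% and in tumor 4 at 161.0%. The oviducts differed at most 1.52-fold from each other and the tumors 31.2-fold.

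Upk3b, a uroplakin first known from the bladder epithelium and used as a mesothelial marker, had the highest counts of the set in each oviduct. It lies on chromosome 5, 136038496 to 136046487, plus strand (ENSMUSG00000042985.7). Oviducts 1 to 5 held 1135.2, 1950.2, 1202.0, 1203.4 and 886.5 normalized counts, and tumors 1 to 4 held 337.0, 149.9, 149.7 and 536.3. The highest tumor was below the lowest oviduct, and tumors 2 and 3 were nearly equal. Upk3b fell by 2.18 ± 0.36 on the log2 scale (limma adjusted p = 0.00128).

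Upk1b codes for a tetraspanin uroplakin (ENSMUSG00000049436.5, chromosome 16, 38773184 to 38800328, minus strand). It stood at 272.4, 458.2, 245.8, 232.7 and 178.6 normalized counts in oviducts 1 to 5 and at 50.5, 69.3, 23.6 and 148.3 in tumors 1 to 4. The groups did not overlap, though tumor 4 came near oviduct 5. The change was -1.80 ± 0.39 (limma adjusted p = 0.00561).

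Gpm6a, a membrane glycoprotein that is abundant in neurons, showed the largest fall of the 6 genes. It lies on chromosome 8, 54954843 to 55060871, plus strand (ENSMUSG00000031517.8). Oviducts 1 to 5 held 417.5, 577.2, 384.1, 314.4 and 304.8 normalized counts, and tumors 1 to 4 held 56.3, 5.7, 15.8 and 65.2. Tumor 2 rested on 5 reads and tumor 3 on 14. Gpm6a fell by 3.13 ± 0.40 on the log2 scale (limma adjusted p = 0.000238). Where reads are few, as here, folds on the deposited scale are too small.

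Lrrn4 codes for a transmembrane protein with leucine-rich repeats (ENSMUSG00000043110.2, chromosome 2, 132868305 to 132880891, minus strand). It stood at 320.4, 497.1, 296.5, 327.8 and 309.3 normalized counts in oviducts 1 to 5 and at 55.4, 118.1, 76.6 and 207.2 in tumors 1 to 4. Oviduct 2 stood apart from the other oviducts, which lay close together, and tumor 1 was the lowest library. The change was -1.57 ± 0.31 (limma adjusted p = 0.00348).

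Bnc1, the one transcription factor of the set, codes for basonuclin 1, a zinc finger protein of keratinocytes, germ cells and mesothelium. The gene (ENSMUSG00000025105.9) lies on chromosome 7, 81966672 to 81992292, minus strand. Oviducts 1 to 5 held 173.0, 261.3, 184.1, 136.0 and 145.1 normalized counts, and tumors 1 to 4 held 30.1, 67.0, 79.9 and 72.6. Its tumors varied the least of the 6 genes, with a coefficient of variation of 35.5%, beside 58.8% to 114.5% for the other 5. Bnc1 fell by 1.30 ± 0.27 on the log2 scale (limma adjusted p = 0.00473). It was the only one of the 6 in which tumor 3 was the highest tumor.

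RefSeq promoter windows of GRCm38.p6, from 250 bases before to 50 after a start, were found for 5 of the 7 genes, with 2 windows for Gpm6a. They are shown for Upk3b, Lrrn4 and Bnc1, genes that fell together and have 1 window each. Capitals mark GGAATG, the core of the TEAD motif, or its reverse complement in Upk3b and Lrrn4, and GGGCGG, the core bound by SP factors, or its reverse complement in Bnc1.
Upk3b, chr5:136038246-136038545, plus strand: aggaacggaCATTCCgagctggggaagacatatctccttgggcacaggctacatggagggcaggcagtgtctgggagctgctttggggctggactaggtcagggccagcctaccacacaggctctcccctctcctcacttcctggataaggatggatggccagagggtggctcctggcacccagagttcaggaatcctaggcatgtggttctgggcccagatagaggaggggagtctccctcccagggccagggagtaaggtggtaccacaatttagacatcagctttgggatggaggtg
Lrrn4, chr2:132880813-132881112, minus strand: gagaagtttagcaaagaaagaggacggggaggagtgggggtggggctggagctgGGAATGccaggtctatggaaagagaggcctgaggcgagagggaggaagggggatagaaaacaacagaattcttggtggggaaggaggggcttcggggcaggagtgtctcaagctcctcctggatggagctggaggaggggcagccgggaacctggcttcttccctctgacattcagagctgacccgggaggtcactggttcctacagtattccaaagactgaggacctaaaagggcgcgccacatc
Bnc1, chr7:81992250-81992549, minus strand: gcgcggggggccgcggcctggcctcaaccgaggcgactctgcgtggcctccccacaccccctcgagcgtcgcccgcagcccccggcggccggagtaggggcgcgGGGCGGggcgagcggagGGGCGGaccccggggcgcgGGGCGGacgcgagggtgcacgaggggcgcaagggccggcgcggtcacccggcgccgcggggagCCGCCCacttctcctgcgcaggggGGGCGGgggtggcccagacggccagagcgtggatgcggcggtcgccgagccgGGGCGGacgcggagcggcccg
Both strands were searched. GGAATG was found once in each of Upk3b and Lrrn4 and in 1 of the 2 windows of Gpm6a, and not in those of Bnc1 and Muc16. It occurs in 14.7% of all 32851 windows of that length. Bnc1 had 6 matches of GGGCGG and Gpm6a had 1 in a window. This core, which 35.7% of all windows hold, was not found in the others. The GC content was 83.3% in Bnc1, beside a median of 52.7% over all windows. GTGGGNG, a core shared by WT1 and EGR factors, was found once in Lrrn4 and once in Bnc1, where it overlaps a GGGCGG match, and 31.6% of all windows hold it. AGATAA, the GATA core, was found in none of the 6 windows, and 11.2% of all windows hold it. TATAAA was found in 1 window of Gpm6a (13.6% of all windows), and CANNTG, the E-box, in Upk3b, Muc16 and both windows of Gpm6a (72.3% of all windows). A match is a run of letters and not a shown binding site.

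Per kilobase of annotated exon, Upk3b and Msln stood highest in the oviducts, at 361 ± 113 and 249 ± 46.7 normalized counts (SD, n = 5). Upk1b (133 ± 51.0), Gpm6a (124 ± 34.2) and Lrrn4 (94.3 ± 22.3) followed, and Bnc1 was lowest at 38.7 ± 10.7. The ranges of Upk3b and Msln overlapped, as did those of Upk1b, Gpm6a and Lrrn4. Msln in the lowest oviduct (197.8) overlapped only with the highest value of Upk1b (219.3), and Bnc1 (at most 56.2) lay below the lowest value of Lrrn4 (79.8). In the tumors the order per kilobase was Msln (156 ± 178, n = 4), Upk3b (83.1 ± 52.3), Upk1b (34.9 ± 25.7), Lrrn4 (30.8 ± 18.1), Bnc1 (13.4 ± 4.8) and Gpm6a (11.1 ± 9.1). All neighbours in that order overlapped, and Gpm6a took the last place, which Bnc1 held in the oviducts.

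**Figure D2:**
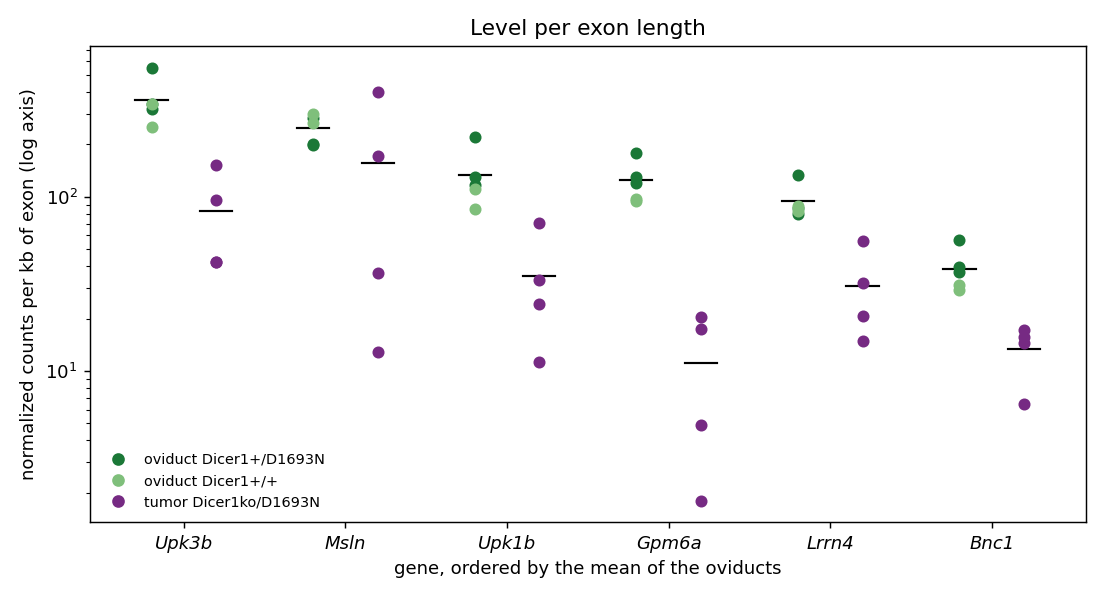
Normalized counts per kilobase of exon (log axis) for the 6 measured genes, ordered by the oviduct mean, with 1 point per library and the group mean as a line. Bnc1 was lowest in the oviducts, at 38.7, and Gpm6a in the tumors, at 11.1.

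The make-up of the set differed between tumors, and the shares of Msln and Bnc1 varied less between oviducts. Of the summed normalized counts of the 6 genes, Msln took 18.8% to 21.1% in the Dicer1+/D1693N oviducts. In the Dicer1+/+ oviducts it took more, 29.3% and 30.7%. Among the tumors Msln took 49.8% in tumor 1 and 54.4% in tumor 4, but 21.5% in tumor 2 and 10.2% in tumor 3. Bnc1 took 4.3% to 6.3% in the oviducts, 20.8% in tumor 3, 12.8% in tumor 2 and about 3% in tumors 1 (2.9%) and 4 (3.2%). Gpm6a took up to 14.2% in the oviducts and 1.1% to 5.3% in the tumors, each below every oviduct. Msln thus took the largest share in tumors 1 and 4, and tumors 2 and 3 held larger shares of Lrrn4 (22.6% and 19.9%) and Bnc1.

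Tumor 4 kept the most of the set. Its median over the 6 genes was 47.8% of the oviduct mean, beside 17.4% in tumor 1, 19.8% in tumor 2 and 10.1% in tumor 3. Tumor 4 was the highest tumor for 5 of the 6 genes, and it was the highest tumor for 25.9% of all genes. In a list of other mesothelial markers 11 of 14 genes were highest in tumor 4 among the tumors. Of 8 mesothelial regulators 0 were. All 7 genes of the fat cell list were highest in tumor 4 among the tumors. Their sum was 85608.7 normalized counts there, 29.3 to 88.4 in the other tumors and 1592.9 to 14268.2 in the oviducts. Among the oviducts the fat cell sum was highest in oviduct 5, where the sum of the mesothelial set was lowest, at 2632.6. Adipoq, the fat cell hormone adiponectin, was at 0 in tumors 1 to 3. Macrophage markers were also highest in tumor 4, for 5 of 5 measured genes, with a sum of 40181.5 against 5131.7 to 22901.1 in the other tumors and 2784.4 to 4687.7 in the oviducts. Of the other lists, set against all oviducts, 7 of 7 ciliated cell genes and 2 of 8 smooth muscle genes were called lower. So were 2 of 6 ovarian steroid cell genes and 1 of 6 urothelium genes. In turn 5 of 6 endothelium genes, 3 of 5 macrophage genes and 3 of 7 fibroblast genes were called higher. Of 8 secretory cell genes 2 were called higher and 2 lower. Of all genes 12.1% were called lower and 6.53% higher, and none of the 7 fat cell genes was called. The part of these cells in the level of the mesothelial genes was not tested. Without tumor 4, all 6 genes were called lower, with a median change of -2.20. Of all 19435 genes, 2585 were then called lower, beside 2356 with tumor 4 kept.

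Oviduct 2 held the most of the set among the oviducts. It was the highest oviduct for 5 of the 6 genes, all but Msln, which was highest in oviduct 4, and it was the highest oviduct for 14.5% of all genes. The summed level was 4609.4 normalized counts in oviduct 2 and 2632.6 to 3132.3 in the other oviducts. In oviduct 2 the fat cell sum (6284.9) and the ovarian steroid cell sum (3545.6) both lay inside the range of the other oviducts. However, 1 of the 6 ovarian steroid cell genes, Cyp17a1, was highest in oviduct 2, at 271.8, and far lower in every other oviduct. Of the 8 mesothelial regulators 5 were also highest in oviduct 2 among the oviducts, including Gata4 at 312.9. Whether ovarian tissue went with the higher mesothelial level in oviduct 2 was not tested. The ovarian steroid cell sum was highest in oviduct 1, at 25759.5, where the mesothelial sum was 2937.9. That sum ran from 358.2 to 25759.5 in the oviducts and from 53.4 to 558.4 in the tumors. Of its 6 genes 4 were highest in oviduct 1, and Hsd3b1, an enzyme of steroid synthesis, was at 0 in tumors 2 to 4.

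**Figure D3:**
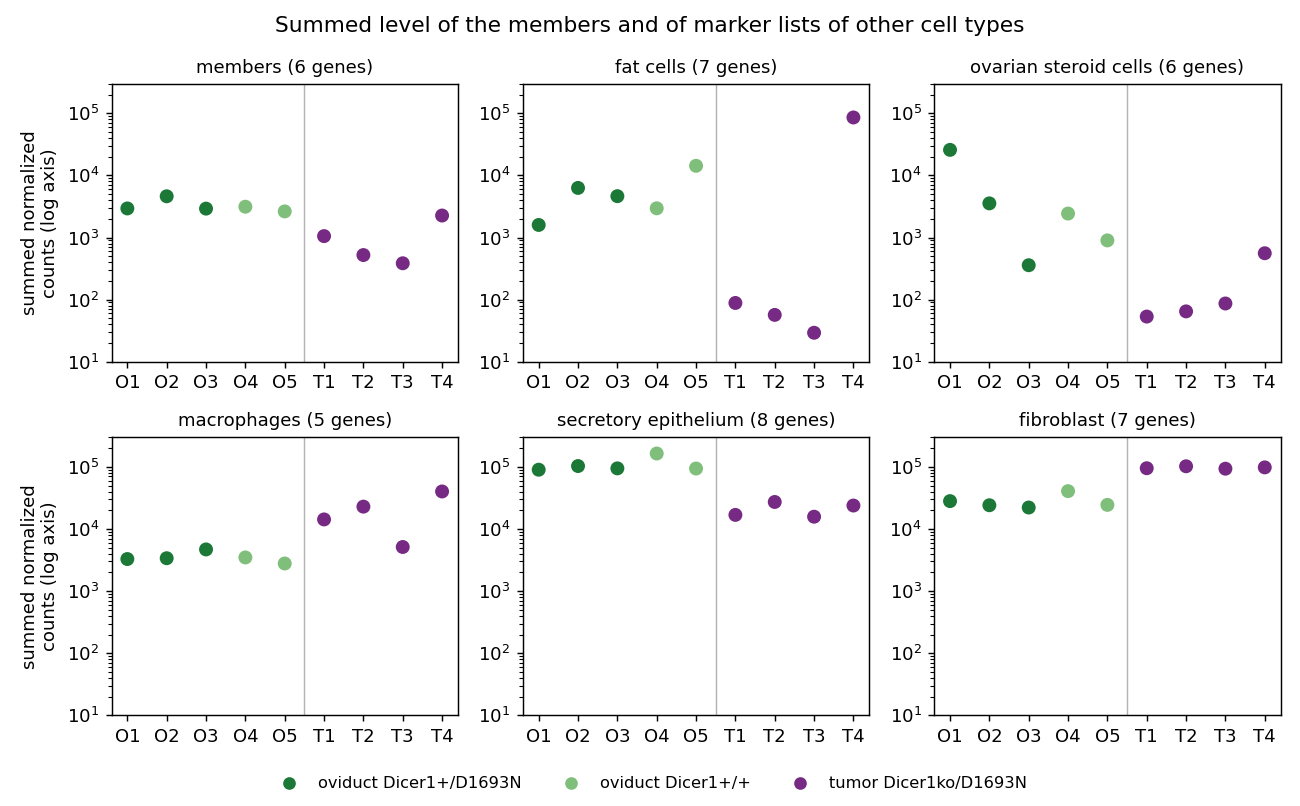
Summed normalized counts (log axis) of the 6 mesothelial genes and of 5 marker lists of other cell types, with 1 point per library. The mesothelial sum was 385.0 to 2259.0 in the tumors and 2632.6 to 4609.4 in the oviducts, and the fat cell sum in tumor 4, 85608.7, was above all other libraries.

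The question of which control is used was addressed by setting the tumors against each oviduct genotype. Against the Dicer1+/D1693N oviducts 5 of the 6 genes were called lower, where 11.4% of all genes were. Against the Dicer1+/+ oviducts 3 of the 6 were called lower, where 9.74% of all genes were. Msln was called in neither, at -1.39 ± 0.88 and -1.71 ± 1.00 in that order. Both comparisons share the tumors. Gpm6a changed by -3.34 ± 0.46 and -2.82 ± 0.52, and Upk3b by -2.35 ± 0.42 and -1.93 ± 0.48, against Dicer1+/D1693N and Dicer1+/+ oviducts respectively. Lrrn4 changed by -1.64 ± 0.37 and -1.46 ± 0.42. Upk1b (-1.46 ± 0.50, limma adjusted p = 0.078) and Bnc1 (-1.02 ± 0.34, adjusted p = 0.0712) were not called against the Dicer1+/+ oviducts. Without oviduct 4 or oviduct 5, which leaves 1 Dicer1+/+ library assumed to vary like the other groups, 0 of the 6 were called against that genotype, and without tumor 4 the count was 5. Against the Dicer1+/D1693N oviducts 3 were called without oviduct 2, when Upk1b and Lrrn4 lost the call.

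The oviduct genotypes were compared directly to see whether the D1693N allele alone went with a change in these genes. By limma 0 of the 6 genes were called, 0 had an unadjusted p under 0.05 (2.75% of all genes did), and limma-voom also called 0. Of all genes 0.0206% were called. The differences, Dicer1+/D1693N minus Dicer1+/+, ran from -0.32 for Msln to 0.57 for Upk1b. Their 95% confidence intervals were -2.69 to 2.06 for Msln, -0.72 to 1.56 for Upk3b, -0.61 to 1.76 for Upk1b, -0.73 to 1.76 for Gpm6a, -0.82 to 1.17 for Lrrn4 and -0.33 to 1.28 for Bnc1. A change of log2 1 in the upward direction was thus inside the interval of each gene. For Upk1b, Gpm6a and Bnc1 every Dicer1+/D1693N oviduct was above every Dicer1+/+ oviduct, as for 16.3% of all genes.

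**Figure D4:**
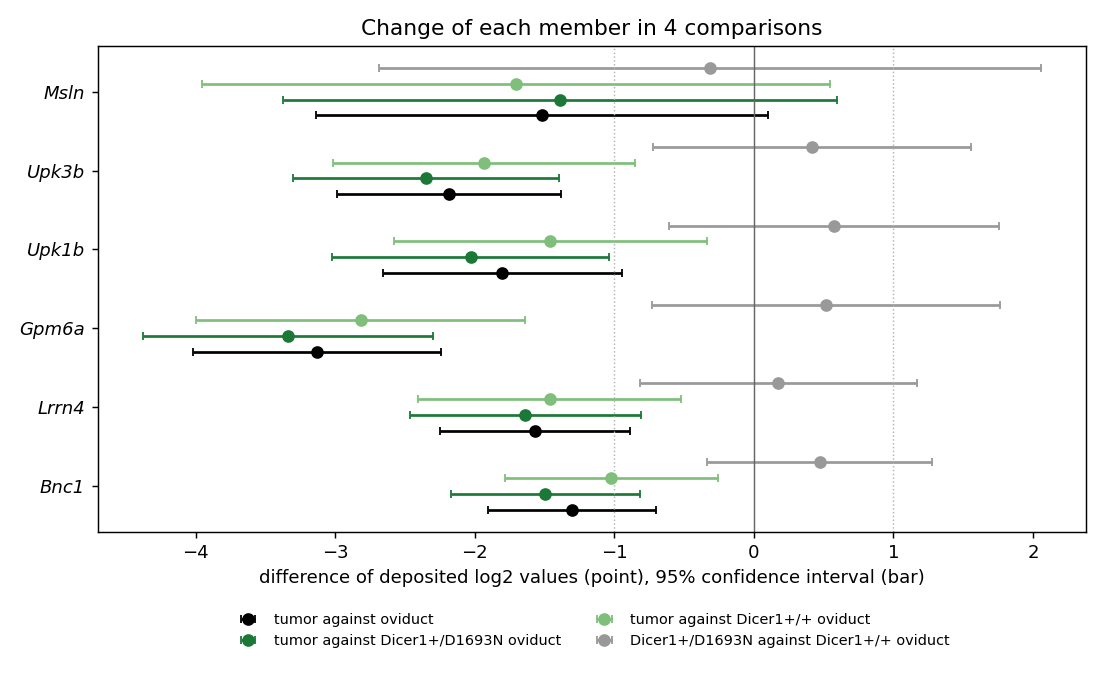
Difference of deposited log2 values with 95% confidence intervals (bars) for the 6 genes in 4 comparisons, with dotted lines at a log2 change of 1 in each direction. Gpm6a lies farthest to the left in each of the 3 comparisons with tumors, at -3.13 against all oviducts, and the intervals of the 2 oviduct genotypes all cross 0.

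Regulators tied to mesothelium moved in both directions. Of 8 genes in that list, 1 was called lower and 3 higher, where 6.53% of all genes were called higher. The median change of the 8 genes was 0.40. Wt1, the zinc finger factor of mesothelium that Müllerian stroma also expresses, stood at 2277.1, 2548.4, 2474.7, 2250.4 and 2365.8 normalized counts in oviducts 1 to 5. It was at 136.9, 373.6, 1554.8 and 320.8 in tumors 1 to 4, a fall of all tumors below all oviducts (-2.49 ± 0.51, limma adjusted p = 0.00436). Tumor 3, which kept the most Wt1, had the lowest Msln.

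Tbx18, a T-box factor of the coelomic lining and of mesenchyme under it, stood at 2.2 to 8.6 in the oviducts and at 114.6, 48.8, 139.6 and 66.3 in tumors 1 to 4. It rose by 2.43 ± 0.29 (limma adjusted p = 0.00015). Its oviduct values rested on 3 to 11 reads, where folds on the deposited scale are too small. Under the alternatives its change ranged from 2.24 to 4.29. Tcf21, a bHLH factor of mesothelium-derived mesenchyme, rose by 2.51 ± 0.66 (adjusted p = 0.0156, 0.0546 with limma-voom), from 94.8 ± 12.6 (SD, n = 5) to 1012 ± 909 (n = 4). Aldh1a2, an enzyme that makes retinoic acid, went from 311 ± 99.3 to 2148 ± 2708 (1.94 ± 0.65, adjusted p = 0.0442). Leaving out tumor 2, or any single oviduct, removed that call (adjusted p from 0.0565 to 0.097). Gata4 (123 ± 114 and 37.5 ± 44.0, adjusted p = 0.118) was called lower without tumor 3 (0.0365). Gata6, a related GATA factor, stood at 439 ± 52.8 and 497 ± 256 (adjusted p = 0.86). All 8 regulators were highest in tumor 3 among the tumors, as were 27% of all genes. Of the 6 marker genes 3 were lowest there, but the share of all genes lowest in tumor 3 was not computed. In tumor 3, 3053 genes had no read, beside 1369 to 1945 in the other tumors.

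Of 14 measured genes in the other mesothelial marker list, 6 were called lower and 0 higher, where 12.1% of all genes were called lower. The median change was -0.55. Ildr2, an immunoglobulin-like membrane protein, fell from 2279 ± 444 to 213 ± 231 normalized counts (-3.83 ± 0.55, limma adjusted p = 0.000527). Pkhd1l1 fell by 2.29 ± 0.22, and Rspo1, a secreted amplifier of WNT signals, fell by 1.95 ± 0.26. Cldn15, a claudin, fell by 1.48 ± 0.39, and Pdpn, the membrane mucin podoplanin, fell by 1.37 ± 0.19. Efemp1 was also called lower (limma adjusted p = 0.0427), but lost the call under 8 of 15 alternatives. The keratins, shared with the oviduct epithelium, were not called. The mean of Krt19 was 4196 ± 814 normalized counts for oviducts and 4282 ± 2409 for tumors (limma adjusted p = 0.849). Krt18 missed the call only through the minimum change (-0.60 ± 0.18, limma adjusted p = 0.0296). It stood at 2403.7 to 3582.5 in the tumors and at 4036.3 to 6391.2 in the oviducts. The limma adjusted p was 0.835 for Krt7 and 0.273 for Krt8. Calb2, which codes for calretinin, had no row.

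Relatives of the set by gene family showed no common direction, with 2 higher, 2 lower and 8 not called of 12. Of all genes 6.53% were called higher and 12.1% lower. Upk1a, the tetraspanin closest in kind to Upk1b, stood at 1255.8, 1123.7, 936.3, 3217.2 and 1743.9 normalized counts in oviducts 1 to 5 and at 191.3, 107.9, 129.5 and 24.2 in tumors 1 to 4. It fell by 3.72 ± 0.47 (limma adjusted p = 0.000228), and unlike Upk1b it was lowest in tumor 4. The other bladder uroplakins were scarce: Upk2 was at most 9.4 and Upk3a at most 12.9 in any library.

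Upk3bl, a gene 8004 bases from Upk3b on chromosome 5, stood at 12.3, 6.0, 18.9, 7.9 and 1.1 in the oviducts and at 73.8, 185.1, 9.0 and 44.2 in the tumors. Its rise of 1.61 ± 0.53 (limma adjusted p = 0.0399) was opposite in direction to the fall of Upk3b, and leaving out tumor 1, tumor 2 or any single oviduct but oviduct 3 removed the call (adjusted p from 0.0631 to 0.0915). Whether the counting, whose settings are not given, mixed reads of these neighbours was not tested. Mslnl, 282 bases from Msln, stayed at 7.9 or less in every library. Muc4, a membrane mucin like MUC16, stood at 270.9, 1715.9, 116.0 and 9387.1 in tumors 1 to 4 and at 70.3 to 111.6 in the oviducts. Its rise of 3.16 ± 1.00 (adjusted p = 0.0351) failed the threshold once tumor 2, or any single oviduct, was left out (adjusted p from 0.0579 to 0.0907). In Muc4, as in Msln, tumor 4 was the highest library.

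**Figure D5:**
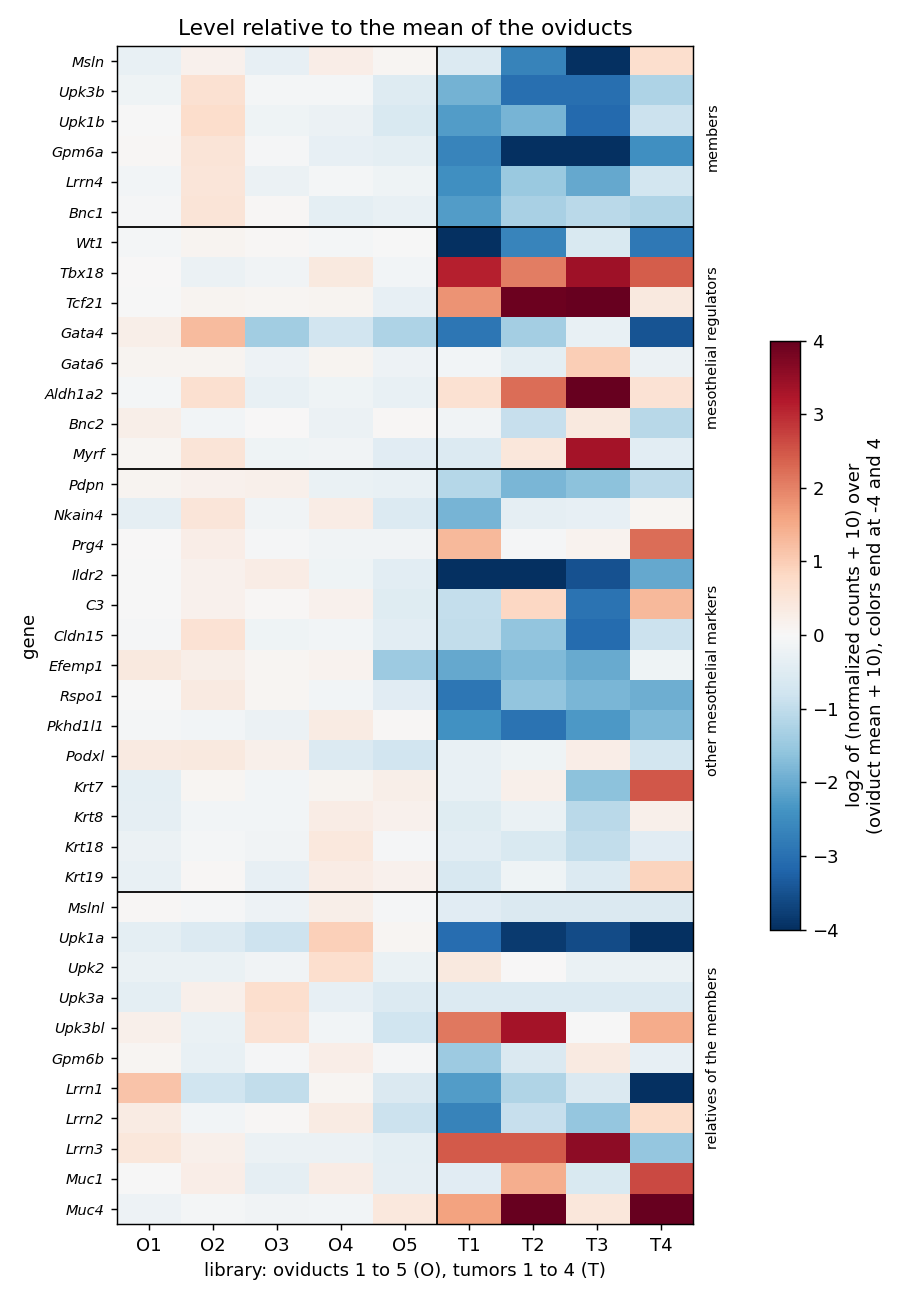
Log2 ratio of each library to the oviduct mean, both with 10 normalized counts added, for the 6 mesothelial genes, 8 regulators, 14 other markers and 11 of the 12 relatives (rows) in 9 libraries (columns). Blue is lower and red is higher: the 6 genes are blue in the tumors except Msln in tumor 4, and Tbx18 is red in all 4 tumors.

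Likeness of profile was measured as the root-mean-square difference of centred log2 values over the 9 libraries, as a description. Within the set the closest pair was Upk1b and Lrrn4 (0.332), followed by Lrrn4 and Bnc1 (0.367) and Upk3b and Upk1b (0.405). The farthest pair was Msln and Bnc1 (1.31), and Msln was at least 0.81 from every other gene. Lrrn4 ranked sixth of all genes in likeness to Upk1b, and Upk3b ranked 34 for Gpm6a. For Bnc1, Msln ranked 17107 and Gpm6a 15844. Gpm6a was also far from Bnc1 (1.15) and Lrrn4 (1.01) by this measure.

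The 10 genes closest to the mean profile of the 6 were Slc4a11, Slc27a1, Adarb1, Lynx1, PCDHGA9, Trpc1, Satb1, Mfsd7a, Rnf144b and Ccdc64, at differences of 0.179 to 0.312. The closest, Slc4a11, a membrane transporter, held 206.5, 218.6, 168.2, 146.2 and 170.8 normalized counts in oviducts 1 to 5 and 33.0, 28.4, 18.0 and 98.9 in tumors 1 to 4, with tumor 4 again the highest tumor. For single genes the closest included Slc27a1, Plxna4 and Satb1 for Upk3b, Slc4a11, Hoxc5 and Slc35e4 for Upk1b, and Atp10a, Myo5b and Sfxn5 for Lrrn4. They included Slc52a3 and Tmem163 for Bnc1 and 2010300C02Rik, Akap14 and 1300017J02Rik for Gpm6a. Msln was near Pkp1 (0.366) and Spon1 (0.414). Like Msln, Spon1 was higher in tumor 4 (1163.1) than in any other library. No gene of the lists above was among these.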

How the data were processed

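Poly-A RNA of 5 oviducts and 4 tumors was sequenced. The submitters' processing notes name FastQC 0.11.5, STAR 2.5.3a, HTSeq (version not given) and the build GRCm38 (mm10). Strandedness, annotation and normalization are not given in the sources used here. The authors deposited log2 values with a shared floor of 3.427. Undoing a variance-stabilizing form gave whole reads over a size factor for 100% of values (tolerance 0.05 reads). Each gene held at least 10 reads in total.

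Tests used limma 3.58.1 in R 4.3.3 on the deposited log2 values (moderated, trend in the prior variance, two-sided, Benjamini-Hochberg over 19435 genes): tumors against all oviducts in 2 groups, the other comparisons in 3 groups sharing 1 spread. Steps were tested on simulated data. The genes and lists were chosen with earlier results of these data known. Besides the set, named genes are up to 4 called genes per list and direction, 7 fixed genes (Wt1, Tbx18, Gata4, Gata6, Krt19, Calb2, Pdpn) and the nearest profiles (10 for the mean, 3 per gene). Hsd3b1, Cyp17a1, Upk2, Upk3a, Mslnl, Krt7, Krt8, Krt18, Muc1 and Efemp1 were named after their values were seen. A few genes that this rule names are not reported here. Exon lengths and positions are from GENCODE M21. Alternatives were log2(normalized count + 1), limma-voom, quantile normalization, the upper 75% of genes, no trend, no minimum change, the title number as a replicate block and leaving out each library.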

Additional observations from a re-analysis of the deposited data

Results flagged for a closer look

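In 44 sets of values (22 named genes, oviducts and tumors apart), 5 held a library whose gap to its neighbour was large beside the whole range of its group, where chance gives about 1 in 20. Lrrn4 in oviduct 2, at 497.1 normalized counts, was far above the other oviducts. Aldh1a2 was also far higher in oviduct 2 (485.9) than in the other oviducts. In tumor 3, Wt1 (1554.8) and Gata6 (878.2) were far above the other tumors. Muc4 in oviduct 5, at 111.6, stood above the other oviducts.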

How the results depend on the processing

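In the comparison of tumors with oviducts, Upk3b, Upk1b, Gpm6a, Lrrn4 and Bnc1 kept their direction and their call under all 15 alternatives, and the count of called genes was 5 to 6 when 1 library was left out. Their changes ranged from -2.52 to -1.95, -2.16 to -1.48, -3.94 to -2.76, -1.86 to -1.33 and -1.61 to -1.07. The change of Msln ranged from -2.25 to -0.78 and was called only without tumor 4. With limma-voom 2 of the 8 regulators were called in place of 4, and the cause was not tested. For the relatives the count of 4 became 1 to 5 when 1 library was left out, and for the other mesothelial markers the count of 6 became 5 to 6. Against the Dicer1+/D1693N oviducts the count was 3 to 6, and against the Dicer1+/+ oviducts 0 to 5, when 1 library was left out. With the title number as a replicate block, 5 genes were called against all oviducts. For the Dicer1+/+ oviducts that block leaves only tumor 4 and oviduct 4 to compare, with a median change of -0.68, so its calls are not informative. Deviations of same-numbered libraries correlated at 0.117, 0.061, -0.089 and 0.006, so the numbers were not taken as pairs. With quantile normalization the median over all genes was 0.08 in place of -0.05, and the calls went from 1269 higher and 2356 lower to 1696 and 1943. Depth limits Gpm6a most, with 5 reads in tumor 2.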

Other observations

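Tumor 4, which held the most Msln, also held the most Krt7 (8888.6 normalized counts, at most 1851.1 in any other library) and Muc1 (3701.8, at most 1598.9 elsewhere), both chosen after their values were seen. Neither was called over the 4 tumors. Krt7 codes for a keratin of simple epithelia and Muc1 for an epithelial membrane mucin. In tumor 3, Myrf, a membrane-bound transcription factor, stood at 5302.8 and at 355.4 to 741.2 in the other 8 libraries, and Aldh1a2 at 6146.1 against at most 1488.7 elsewhere.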
